A study of Mus musculus with 8 samples.

Results

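The Nnmt locus on mouse chromosome 9 held 23 of the 265968 regions in which the authors' deposited table compares the repressive histone mark H3K27me3 between 2 sets of libraries. The 23 are all rows that overlap the RefSeq span of Nnmt (chromosome 9, 48538002 to 48607655, GRCm38, 69.7 kb) with 2 kb added on each side, whatever p the authors gave them. They were read beside the 550 rows that lie outside this window and within 1 Mb on either side of it.

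NNMT, nicotinamide N-methyltransferase, moves the methyl group of S-adenosylmethionine onto nicotinamide, and leaves 1-methylnicotinamide and S-adenosylhomocysteine. The enzyme is known for high levels in liver, in fat and in the stromal fibroblasts of tumours. H3K27me3 is laid down by Polycomb repressive complex 2 with the same methyl donor, and it is found over genes that are kept silent. Nnmt is the mouse gene for the enzyme that was overexpressed.

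All groups were 3T3 cells, an immortalised mouse fibroblast line, cultured for 48 h with 10 µM methionine in a medium with 10% dialyzed serum. A control construct was expressed in 3 of the immunoprecipitated libraries and an NNMT overexpression construct in the other 3, and each construct had 1 input library. The labels do not give the promoter of the construct, the species of its sequence, or whether the cells were a clone. No separate cultures are described beyond the term biological replicates.

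The columns of the table carry no names, so the table does not say which of its sets holds the NNMT libraries. The libraries listed first are called set 1 and those listed second set 2, each numbered in the order of listing, and no direction is tied to NNMT. The libraries could not be matched to labelled samples, so they were not treated as replicates of a group, and the sets are described without a test or a mean ± SD. The spread given with a ratio is its range when each set 1 library is divided by each set 2 library, 9 pairs in all. This range reuses the same 6 libraries and is not an error estimate. The sets are called separated where all 3 values of one lie above all 3 of the other. Every value is the number that the authors deposited for a library in a region, with no stated unit or scaling.

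The table as a whole sets the background for these values. It lists only regions already selected for a difference (highest p 0.1), and depth is unknown, because the library totals are not in it. The values summed over all its regions ran from 39899303 to 41971892 in set 1 and from 35565866 to 36958436 in set 2, a shift of 0.19 on the log2 scale towards set 1. None of 10 fibroblast marker genes, among them Col1a1, Col3a1, Pdgfra and Thy1, carried a listed region. Of 6 markers of other cell types 5 did (Ptprc, Epcam, Rbfox3, Myod1 and Adipoq), beside 32.2% of all named genes. A gene without a listed region may lack the mark or carry it equally in both sets.

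Summed over its 23 regions, H3K27me3 at Nnmt was higher in set 2. The set 1 libraries summed to 1609, 1750 and 1669 and the set 2 libraries to 2137, 1992 and 1921, from the authors' deposited table. The lowest set 2 library lay above the highest set 1 library, so the sets did not overlap. The ratio was 1.2-fold (range over library pairs 1.1 to 1.33), or -0.27 as the log2 of set 1 over set 2. Sums separated in that direction were found for 22.0% of the 6608 named genes with a listed region.

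The direction stood against that of most of the table. Relative to each library's own total over all listed regions, Nnmt took 0.00385%, 0.00417% and 0.00418% in set 1 and 0.00600%, 0.00539% and 0.00540% in set 2. On that scale the sets lay farther apart, and the log2 ratio was -0.46. The median log2 ratio over the 6608 genes was 0.38, with quartiles of -0.14 and 0.77. Nnmt stood below the lower quartile, and 1404 of the genes (21.2%) had a lower log2 ratio.

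**Figure D1:**
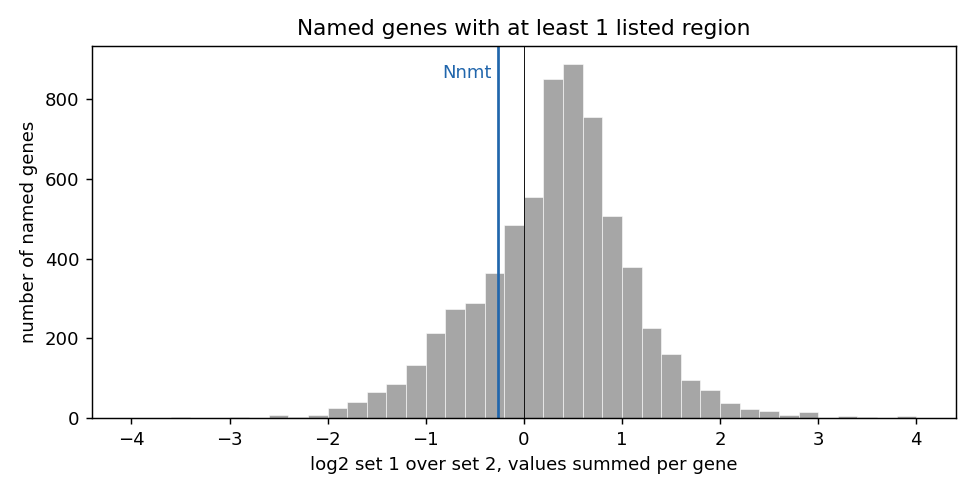
Number of named genes with at least 1 listed region (vertical axis) by the log2 ratio of set 1 over set 2 of their summed values (horizontal axis, with values beyond the ends placed in the end bins). The line marks Nnmt at -0.27, to the left of the median of 0.38.

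Set 2 was higher in 17 of the 23 regions at Nnmt and set 1 in 6. Over all listed regions the shares were the other way round, with 40.5% higher in set 2 and 59.5% in set 1. The 3 values of set 2 lay above all 3 of set 1 in 10 of the 23 (43.5%), against 24.7% of all listed regions. The 3 values of set 1 lay above all 3 of set 2 in 3 of the 23 (13.0%), against 40.5%. In the other 10 regions the sets overlapped. Taken in either direction, 13 of the 23 (56.5%) were separated, a smaller share than the 65.1% of all listed regions. A log2 ratio of 1 or more in either direction was reached by 4 of the 23 (17.4%), against 35.2% of all listed regions, so few of the differences at Nnmt were large. In all 23 the single highest value belonged to the set with the higher sum, and in 22 the single lowest value belonged to the other set. Because rows entered the table by the authors' p, this order is likely in any row. Its share of all listed regions was not counted, so nothing particular to Nnmt is read from it.

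The regions at Nnmt were of ordinary length for the table. They were 100 to 1100 bp long with a median of 450 bp, the same as the median of the table, while the longest region within 1 Mb measured 4850 bp. Together they covered 11.4 kb, or 15.5% of the window. Per base pair and library, the mean deposited value was 0.161 at Nnmt, 0.166 within 1 Mb and 0.187 over all listed regions. Among 1804 genes with regions and a span within a factor of 2 of that of Nnmt, the median number of regions was 18, and 706 had more than the 23 of Nnmt.

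All 23 regions lay in the low-coordinate part of the locus. The first began at 48537451, in the flank, and the last ended at 48569450, so that 32.0 kb held every listed region. The remaining 38.2 kb of the gene span, 54.8% of it, held none, and the next listed region began at 48620951, beyond the window. The stretch without a listed region thus measured 51.5 kb. Within 1 Mb on either side, longer ones measured 261, 133 and 79.8 kb between regions, and 174 kb from the last region to the edge of the neighbourhood. As background, mouse Nnmt is transcribed from the minus strand, which the annotation table used here does not state. The end without listed regions is thus the upstream end of the RefSeq span. The RefSeq span joins 4 transcript models, 2 curated and 2 predicted, whose exons the table does not give. Whether a region lies in an exon, in an intron or outside the curated transcripts was not determined.

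**Figure D2:**
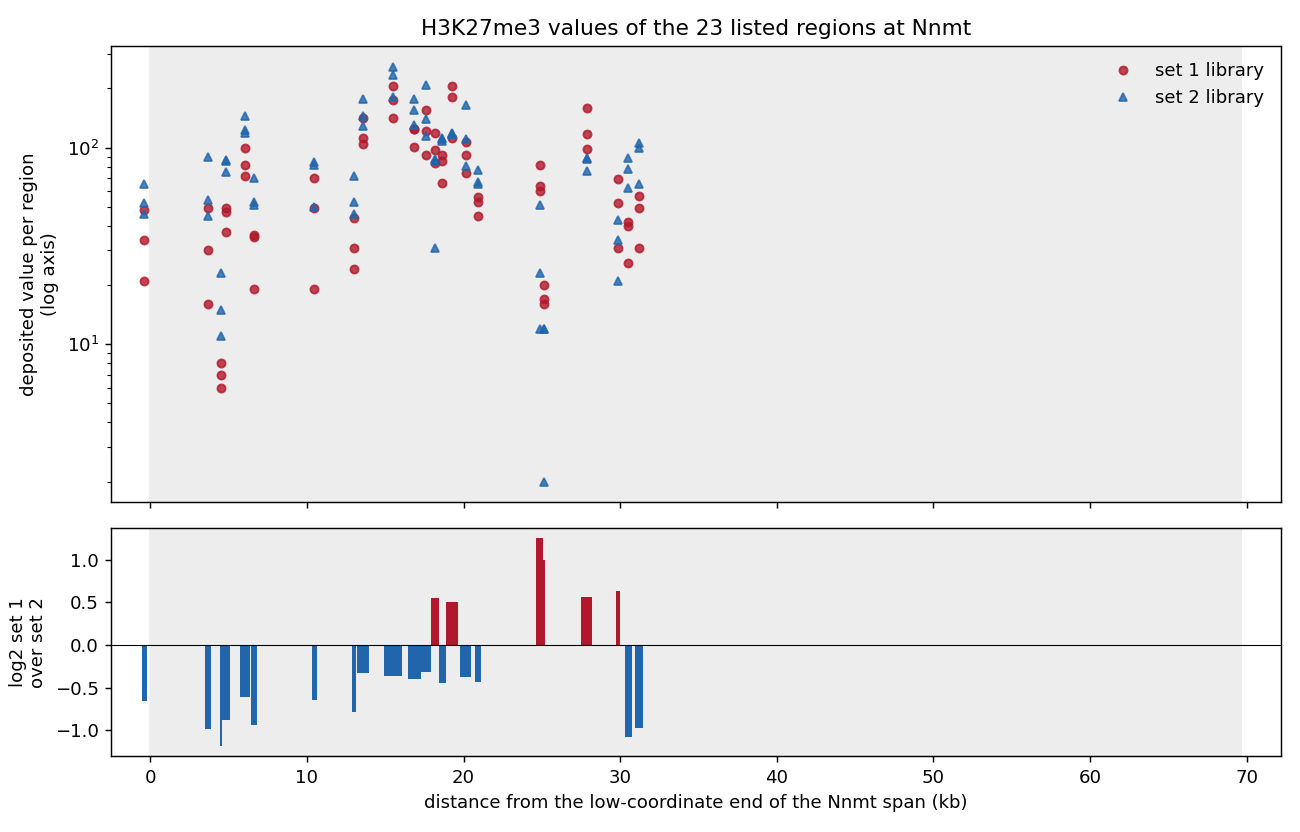
Upper panel, the deposited value of each library (log axis) at the midpoint of each of the 23 regions, with circles for set 1 and triangles for set 2; lower panel, the log2 ratio of set 1 over set 2, with bar width equal to region length. Both are plotted against the distance from the low-coordinate end of the Nnmt span, which is shaded; 17 bars point down, 6 point up, and none lies in the last 38.2 kb of the span.

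Along the locus the directions came in stretches. The first 12 regions, over 18.5 kb from 48537451 to 48555950, were all higher in set 2. They summed to 777, 933 and 822 in the libraries of set 1 and to 1300, 1204 and 1134 in those of set 2. The sets did not overlap, and the ratio was 1.44-fold (1.22 to 1.67 over pairs). Taken one by one, 6 of these 12 regions were separated, beside 65.1% of all listed regions in either direction.

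The other 11 regions, 6 higher in set 1 and 5 in set 2, nearly cancelled. The set 1 libraries summed to 832, 817 and 847 and the set 2 libraries to 837, 788 and 787, so the sets overlapped, and set 1 was 1.03-fold higher (0.976 to 1.08 over pairs). The excess of set 2 at Nnmt was thus found within the first 12 regions, where set 2 exceeded set 1 by 1106, against -84 in the other 11. After rescaling the libraries to equal totals the second stretch turned towards set 2 at 1.11-fold, and the first stood at 1.64-fold. The boundary between the stretches was chosen after the values were seen.

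The 6 regions with the highest summed value show how far single libraries spread. The highest sum belonged to the longest region, 1100 bp from 48552951 to 48554050, with 142, 206 and 175 in set 1 and 258, 233 and 180 in set 2. It was 1.28-fold higher in set 2 (0.874 to 1.81 over pairs), and the third set 2 library lay within the range of set 1. A region of 800 bp from 48554451 to 48555250 read 124, 125 and 101 in set 1 and 177, 155 and 131 in set 2, a ratio of 1.32 (1.05 to 1.75) with no overlap. Its neighbour of 650 bp from 48555301 to 48555950 had 92, 155 and 122 in set 1 and 139, 115 and 207 in set 2, and these overlapped (ratio 1.25, 0.742 to 2.25 over pairs).

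By the authors' deposited values, a region of 750 bp from 48551201 to 48551950 stood at 112, 142 and 104 in set 1 and 176, 144 and 129 in set 2. It was 1.25-fold higher in set 2 (0.909 to 1.69 over pairs), again with an overlap by 1 library. The region of 650 bp from 48543701 to 48544350 had 82, 72 and 99 in set 1 and 118, 145 and 123 in set 2, so all set 2 libraries were higher (ratio 1.52, 1.19 to 2.01). Of these 5 regions higher in set 2, 2 were separated, beside 65.1% of all listed regions in either direction.

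The remaining one of the 6 pointed the other way. It spanned 800 bp from 48556851 to 48557650 and favoured set 1 at 1.41-fold (0.949 to 1.75 over pairs), where set 1 read 112, 181 and 205 and set 2 read 118, 117 and 117. The set 2 libraries were almost equal there, while the first set 1 library lay below all 3 of them. This was the single region of the 23 in which the lowest value came from the set with the higher sum.

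Around this region 4 rows of the table touched end to end with alternating direction, from 48555301 to 48557650. A region of 450 bp from 48555951 to 48556400 had 97, 83 and 118 in set 1 and 85, 31 and 87 in set 2, a ratio of 1.47 towards set 1 (0.954 to 3.78 over pairs). Without the value of 31 the sets would still overlap, at 83 in set 1 against 85 and 87 in set 2. The next 450 bp, from 48556401 to 48556850, had 92, 85 and 66 in set 1 and 108, 112 and 111 in set 2, separated towards set 2 at 1.36-fold (1.17 to 1.69). In the table as a whole 16985 pairs of rows touch, and in all 16985 the directions are opposite, so a touching pair is where the listing changes direction.

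The clearest regions higher in set 1 lay together at higher coordinates of the RefSeq span. They form a run of 4 regions over 5.35 kb from 48562651 to 48568000. Of these 3 were separated, beside 65.1% of all listed regions in either direction. The 4 were picked out after their values were seen. They summed to 284, 227 and 274 in the set 1 libraries and to 184, 144 and 134 in the set 2 libraries, a ratio of 1.7 (1.23 to 2.12 over pairs) without overlap. The first of them, 400 bp from 48562651 to 48563050, read 82, 60 and 64 in set 1 and 51, 23 and 12 in set 2. Its ratio of 2.38 (1.18 to 6.68 over pairs) was the largest of the 23. A region of 700 bp from 48565501 to 48566200 had 117, 98 and 159 in set 1 and 87, 76 and 89 in set 2, also separated, at 1.48-fold (1.1 to 2.09). The shortest, 100 bp from 48563101 to 48563200, had 16, 17 and 20 against 12, 2 and 12, values too low to give its ratio of 2.0 a narrow range (1.32 to 8.71 over pairs).

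The last regions before the unlisted stretch returned to set 2. The region from 48568301 to 48568750 had 42, 40 and 26 in set 1 and 89, 78 and 62 in set 2, separated at 2.11-fold (1.47 to 3.39 over pairs). The one from 48568951 to 48569450 had 57, 49 and 31 in set 1 and 105, 65 and 100 in set 2, separated at 1.96-fold (1.14 to 3.36). The highest ratio towards set 2 was 2.27 (1.36 to 3.68 over pairs), at a region of 100 bp from 48542451 to 48542550 where the values were low, 7, 6 and 8 against 23, 11 and 15.

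The neighbourhood as a whole differed between the sets as Nnmt did. Of its 550 regions 397 (72.2%) were higher in set 2, close to the 73.9% at Nnmt, and the sums were 1.22-fold higher in set 2 (1.15 to 1.34 over pairs). As a percentage of the neighbourhood's summed value, a measure that does not depend on a library's depth, Nnmt took 2.83, 3.01 and 3.12 in set 1 and 3.2, 2.78 and 2.85 in set 2. These values overlapped. The log2 ratio at Nnmt exceeded that of the neighbourhood by 0.02 (-0.17 to 0.17 over pairs), a difference with no consistent direction over the library pairs.

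The sides of Nnmt were unlike each other, and Nnmt stood between them. On the low-coordinate side 248 of 262 regions (94.7%) were higher in set 2, with sums at 1.47-fold (1.36 to 1.67 over pairs). On the high-coordinate side 149 of 288 (51.7%) were, and the sums differed by 1.02-fold (0.969 to 1.09). Relative to the low side, Nnmt took 6.28%, 6.73% and 7.24% in set 1 and 6.02%, 5.17% and 5.32% in set 2, so every set 1 library was above every set 2 library. Relative to the high side, it took 5.16%, 5.44% and 5.49% in set 1 and 6.8%, 6.0% and 6.16% in set 2, and the order was reversed, again without overlap. The log2 ratio at Nnmt was thus 0.29 above that of the low side (0.06 to 0.49 over pairs) and 0.24 below that of the high side, a difference of -0.24 (-0.40 to -0.13). With 500 kb in place of 1 Mb these differences shrank to 0.17 (0.01 to 0.33 over pairs) and -0.10 (-0.23 to 0.00), and with 2 Mb that from the high side was -0.38. The split into sides was made after the values were seen.

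**Figure D3:**
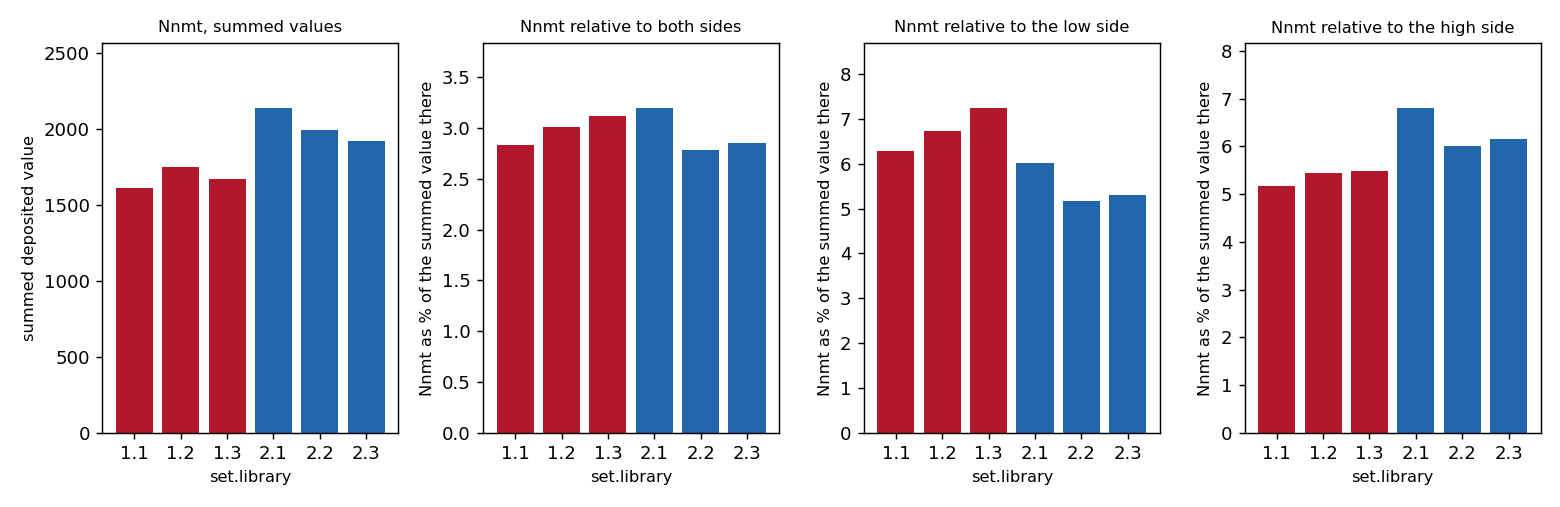
Nnmt per library, with libraries on the horizontal axis as set and number: the summed deposited value (left), then that sum as a percentage of the summed value of both sides, of the low-coordinate side and of the high-coordinate side within 1 Mb. All bars start at 0; the sets are apart in the summed values (1609 to 1750 against 1921 to 2137), overlap relative to both sides, and are apart in opposite directions relative to the low and the high side.

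Nearest to Nnmt the listed regions also leaned to set 2. The 8 nearest on the low side were all higher in set 2, at 1.45-fold in sum (1.32 to 1.61 over pairs). Of these 8, 5 (62.5%) were separated, beside 65.1% of all listed regions in either direction. Of the 8 nearest on the high side 6 were higher in set 2, at 1.25-fold in sum (1.13 to 1.42). The summed ratio of Nnmt, 1.2-fold, was lower than either. That of its first 12 regions, 1.44-fold, was close to that of the low side. Those 12 were grouped because all were higher in set 2, so nothing is read from this closeness.

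Of the 31 other coding and long noncoding genes that reach into the 1 Mb on either side, 16 carried listed regions and 15 none. The nearest genes on the low side, Gm5617, Rbm7 and Rexo2, were among the 15. Rbm7 encodes an RNA-binding protein of nuclear exosome targeting and Rexo2 an oligoribonuclease. The longest gap, of 261 kb, and that of 79.8 kb also lie on this side. Cadm1, a cell adhesion molecule of the immunoglobulin family 676 kb from Nnmt, carried the most regions. It had 142, of which 139 were higher in set 2, with sums at 1.52-fold (1.41 to 1.71 over pairs). The noncoding gene Gm10677, which lies inside it and shares regions with it, carried 15, all higher in set 2.

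On the high side the first gene was Zbtb16, which encodes a zinc finger transcriptional repressor and lies 44.1 kb from the Nnmt span. It carried 69 regions, 43 higher in set 2 and 26 in set 1. The set 1 libraries summed to 6381, 6991 and 6441 there and the set 2 libraries to 7100, 7916 and 7314, separated at 1.13-fold (1.02 to 1.24 over pairs), a smaller ratio than that of Nnmt. The region with the highest summed value within 1 Mb lay in it, 4850 bp from 48670201 to 48675050, at 1.39-fold towards set 2 (1.19 to 1.59). Htr3a, a serotonin receptor channel subunit 292 kb from Nnmt, had 8 of 8 regions higher in set 2, at 1.39-fold in sum (1.14 to 1.64 over pairs). Of the genes beyond it, Htr3b, another such subunit, was 1.06-fold higher in set 1 with 21 regions, although it turned towards set 2 once libraries were rescaled, as the shift of 0.19 exceeds its log2 ratio of 0.09. Drd2, a dopamine receptor, stood at 1.07-fold towards set 1 with 22 regions and overlapping values (log2 0.10), and turned likewise. Gm4894, with 16 regions, was 1.16-fold higher in set 1 (log2 0.21).

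**Figure D4:**
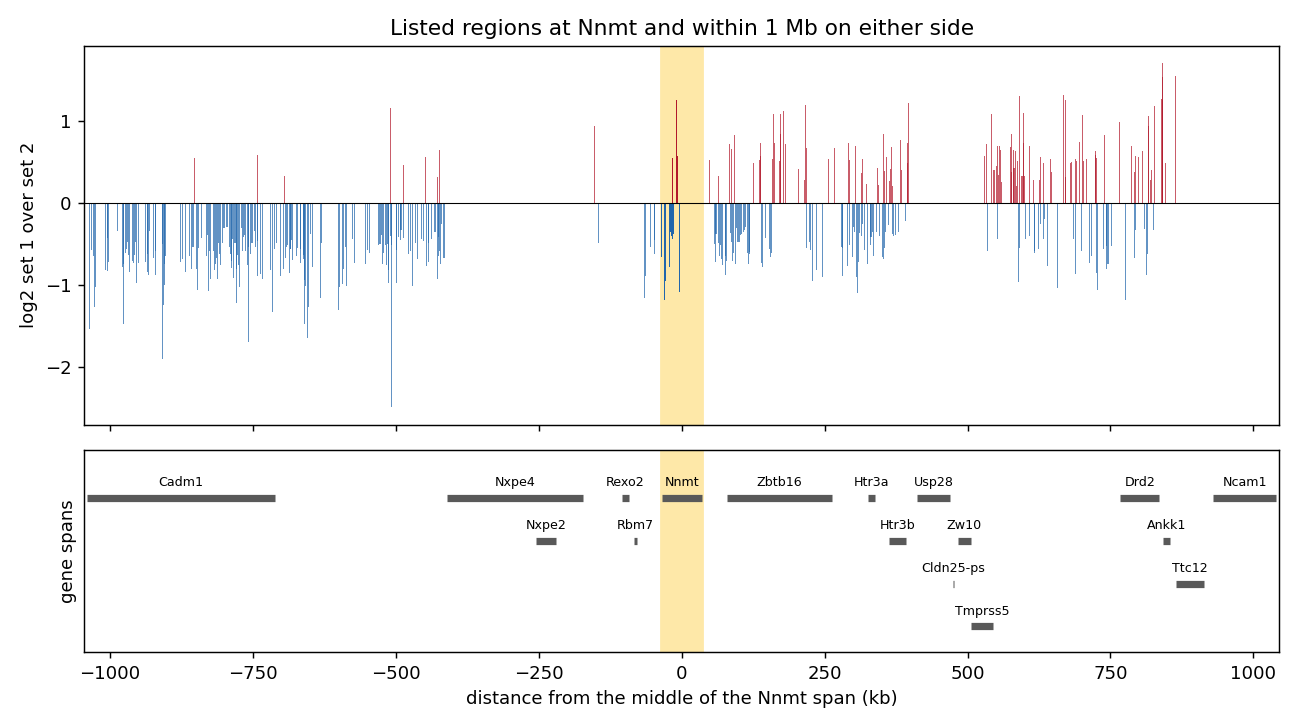
Log2 ratio of set 1 over set 2 of each listed region (upper panel; bars are as wide as the region, or 1.2 kb where it is shorter) and spans of named genes (lower panel) against the distance from the middle of the Nnmt span, with the Nnmt window shaded. On the left 248 of 262 regions point down, on the right 149 of 288 do, and the shaded window holds 17 that point down and 6 that point up.

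The pathway around NNMT was read from a list of 41 other genes of nicotinamide, NAD and methyl donor metabolism. A listed region was carried by 16 of them (39.0%), against 32.2% of all named genes. In sum set 1 was higher at 12 of the 16 and set 2 at 4. Over all named genes with regions, set 2 was higher at 2002 of 6608 (30.3%). The median log2 ratio of the 16 was 0.39, against 0.38 over all named genes with regions. The list thus lay close to the background, and Nnmt had the direction of its smaller share. The methyltransferases of the same enzyme family both stood on the other side from Nnmt. Inmt, which methylates indoleamines, summed to 1485, 1578 and 1319 in set 1 and 1173, 1044 and 1064 in set 2, separated at 1.34-fold (1.12 to 1.51 over pairs). Pnmt, which makes adrenaline, had 133, 124 and 128 against 63, 72 and 46, separated at 2.12-fold (1.72 to 2.88).

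The genes listed as oxidising or transporting 1-methylnicotinamide that carried listed regions were likewise higher in set 1, as were most named genes with regions. The aldehyde oxidases, a family that oxidises 1-methylnicotinamide, form a gene cluster, in which Aox2 had 29 of 29 regions higher in set 1 (2.16-fold in sum, 1.89 to 2.44 over pairs). Aox3 had 33 of 35 (1.67-fold, 1.5 to 1.9) and Aox4 had 22 of 23 (1.38-fold, 1.25 to 1.48). Aox1 carried no listed region. The neighbouring organic cation transporters, which carry 1-methylnicotinamide, had smaller ratios, with Slc22a2 at 1.26-fold and Slc22a3 at 1.17-fold, both separated. The log2 ratio of Slc22a3, 0.23, was little above the shift of 0.19 over all listed regions. Outside that group, Pemt, which spends S-adenosylmethionine on phosphatidylethanolamine, had 43 of 45 regions higher in set 1 (1.56-fold, 1.46 to 1.66 over pairs). Of the 5 genes of methionine and S-adenosylmethionine metabolism with regions, Pemt among them, 3 were higher in sum in set 1 and 2 in set 2. Of 10 genes of NAD synthesis 1 carried regions, Nmnat3, with all 5 higher in set 2 (2.08-fold in sum, 1.76 to 2.62 over pairs). Neighbours in a cluster share a chromosome segment and are not independent of each other.

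The genes most like Nnmt over the 6 libraries were sought among 1253 named genes with at least 23 regions. Likeness was the root mean square difference of log2 summed values, each gene centred on its own mean. The nearest were Rhbdl3 on chromosome 11, a rhomboid-family membrane protein, at 0.04, Stk33 on chromosome 7, a serine/threonine kinase, at 0.04, and Hfm1 on chromosome 5, a meiotic helicase, at 0.04, against a median of 0.32. In the authors' deposited table Rhbdl3 summed to 3365, 3485 and 3203 in set 1 and 4175, 4085 and 3907 in set 2, and the first library of set 2 was its highest, as at Nnmt. Stk33 and Hfm1 were higher in set 2 by 1.21-fold and 1.23-fold. These genes were chosen for likeness to the same 6 values, so their shared direction and size follow from the choice.

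Values of the input libraries are not among the deposited values used here, so a difference in DNA dosage and a difference in the mark cannot be told apart at Nnmt. Nor do these regions check the overexpression, since the histone mark is not a measure of the construct's RNA.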

How the data were processed

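H3K27me3 was profiled by chromatin immunoprecipitation and sequencing of chromatin digested with micrococcal nuclease. The submitters' processing notes name BWA 0.7.17, Trimmomatic 0.36, CASAVA and the build GRCm38. Which program called regions, how values were scaled and whether inputs were subtracted was not given in the sources used here. Listed in the deposited table are 265968 regions on a grid of 50 bp, each with 3 values for each of 2 sets of libraries and a last number taken to be the −log10 of the authors' p; all values are whole numbers, which can be rescaled and rounded, so no count model was fitted. A deposited score column is constant and was not used. A sign column disagreed with the values in 0 rows.

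Regions overlapping Nnmt by at least 1 bp were summed per library with pandas 2.3.3 (Python 3.11.15). A pseudocount of 1 was added to sums before log2 ratios were taken. Genes are RefSeq coding and long noncoding genes of GRCm38.p6 with 2 kb added on each side; counts over all named genes leave out symbols of the Gm, LOC and Rik kind, which leaves 20494. Overlaps were tested on simulated data. The members and gene lists were chosen with earlier results of these data known. Named were all genes and regions that the rules on number of regions and summed value select, and Inmt, Pnmt, Nmnat3, Htr3a, Gm5617, Rbm7, Rexo2 and the regions of lower summed value by choice after their values were seen.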

Additional observations from a re-analysis of the deposited data

How the results depend on the processing

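The sum at Nnmt stayed higher in set 2 under all 13 alternatives. The log2 ratio of set 1 over set 2 moved from -0.27 to -0.46 (-0.64 to -0.37 over pairs) when the libraries were rescaled to equal totals, and lay between -0.30 and -0.22 when each library was left out in turn. Other pseudocounts, flanks and overlaps left it within its range over library pairs. The counts of 17 regions higher in set 2 and 6 in set 1 remained 17 and 6 without any one library. The regions were listed for a difference over all 6 libraries, so these counts could hardly change and are no check of the direction. With regions at the authors' p under 0.01 alone, which lists fewer regions, they were 6 and 2. The difference from both sides together lay between -0.02 and 0.08 with 1 library left out and between -0.06 and 0.06 under the others. That from the low side, added after seeing the data, lay between 0.24 and 0.36 with 1 library left out and between 0.17 (500 kb) and 0.37 (2 Mb) under the others, and at p under 0.01 its range over pairs reached -0.02. That from the high side lay between -0.27 and -0.18 with 1 library left out and was -0.10 with a neighbourhood of 500 kb and -0.38 with one of 2 Mb. The share of neighbouring regions higher in set 2 lay between 67.5% and 81.8%. No paired analysis was possible because the value columns carry no replicate numbers. Depth is unknown, so the counting error of low values could not be given.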
